A study of Homo sapiens with 6 samples.

Results

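The peaks examined here were those that touched the start of a protein-coding gene in chromatin immunoprecipitation sequencing (ChIP-seq) of plasminogen activator inhibitor-1 (PAI-1). A peak was included when it overlapped by at least 1 bp the window that reaches 500 bp to each side of the transcription start site (TSS) of a protein-coding gene on GRCh37, the assembly behind hg19. This selected 1048 of the 380031 peaks summed over the 4 peak lists, in 972 distinct intervals and 695 separate loci. The windows belonged to 697 of 20144 protein-coding genes (3.46%), which are called genes with a promoter peak below.

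The cells were RT112 and UM-UC-3, both established human bladder cancer lines, and an antibody against endogenous PAI-1 was used on their nuclear extracts. Each line had 2 replicate ChIP libraries with a peak list, and 1 input library that was not analysed here. The labels name no treatment, gene knockout or knockdown for any of the 6 samples, and each line stands for 1 tumour. The labels call the replicates biological. The sources do not say whether they came from separate cultures. The p-values below take the 4 libraries as units, although these come from 2 lines and replicates of a line share many peaks. They describe these libraries only and do not measure the spread between tumours.

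PAI-1 is a secreted serine protease inhibitor that blocks the plasminogen activators uPA and tPA, and it was studied here as a nuclear protein. Mammalian promoters fall broadly into those within CpG islands, which stay mostly unmethylated and serve housekeeping and developmental genes, and those poor in CpG, which more often serve tissue-restricted genes. The CpG observed/expected ratio compares the number of CpG dinucleotides with that given by the C and G content. Here a promoter was called CpG-rich when its window had a GC content of at least 55% and a CpG ratio of at least 0.75, CpG-poor when the ratio was below 0.48, and intermediate otherwise.

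The sequences of some of these peaks are given first. Shown are 160 bases from the centre of the best-scored promoter peak of genes chosen by rank of the score or by CpG ratio, on hg19, 5′ to 3′ on the strand of the gene, with each CpG in capitals. SMIM43 (chr4:122686903-122687062, minus strand) and EID2 (chr19:40031153-40031312, minus strand) had CpG-rich windows. ASB2 (chr14:94443430-94443589, minus strand), AZGP1 (chr7:99574041-99574200, minus strand), BSX (chr11:122853087-122853246, minus strand), TRIM31 (chr6:30081393-30081552, minus strand), CD300LD (chr17:72588673-72588832, minus strand) and MAP1LC3B2 (chr12:116986318-116986477, plus strand) had high scores and CpG-poor windows.
SMIM43: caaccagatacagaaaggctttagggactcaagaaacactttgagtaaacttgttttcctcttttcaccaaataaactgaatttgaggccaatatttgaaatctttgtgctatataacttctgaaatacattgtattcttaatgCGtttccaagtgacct
EID2: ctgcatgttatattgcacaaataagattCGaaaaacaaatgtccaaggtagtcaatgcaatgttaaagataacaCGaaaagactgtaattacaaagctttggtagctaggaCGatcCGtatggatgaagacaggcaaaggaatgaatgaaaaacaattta
ASB2: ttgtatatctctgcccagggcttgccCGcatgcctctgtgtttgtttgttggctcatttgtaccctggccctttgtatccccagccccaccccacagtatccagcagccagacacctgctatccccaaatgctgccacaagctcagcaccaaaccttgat
AZGP1: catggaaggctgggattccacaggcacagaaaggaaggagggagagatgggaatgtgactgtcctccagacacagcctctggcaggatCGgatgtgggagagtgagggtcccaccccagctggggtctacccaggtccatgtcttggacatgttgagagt
BSX: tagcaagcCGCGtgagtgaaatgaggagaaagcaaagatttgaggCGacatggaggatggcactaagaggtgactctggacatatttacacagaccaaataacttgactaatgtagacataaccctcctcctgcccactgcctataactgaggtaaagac
TRIM31: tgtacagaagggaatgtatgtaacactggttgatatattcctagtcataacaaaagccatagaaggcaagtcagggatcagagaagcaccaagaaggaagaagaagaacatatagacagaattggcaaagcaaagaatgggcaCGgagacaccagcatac
CD300LD: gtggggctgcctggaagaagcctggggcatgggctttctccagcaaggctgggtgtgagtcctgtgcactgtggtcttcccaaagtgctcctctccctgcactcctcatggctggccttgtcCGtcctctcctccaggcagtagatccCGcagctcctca
MAP1LC3B2: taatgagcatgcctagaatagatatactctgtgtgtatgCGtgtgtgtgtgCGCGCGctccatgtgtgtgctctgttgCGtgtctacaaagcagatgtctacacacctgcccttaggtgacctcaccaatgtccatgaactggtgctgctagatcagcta

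The peak stretches printed for genes with CpG-rich windows held 1 CpG (SMIM43) and 4 CpGs (EID2) at 33.8% and 34.4% GC. Over the 5 stretches from named genes with a CpG-rich window, the GC content ran from 33.8% to 43.8%, so the printed ones lie at the low end. The CpG count of the 5 ran from 1 to 4 with a median of 1. The stretches printed for genes with CpG-poor windows held 1 to 3 CpGs, except that of MAP1LC3B2 with 5. Those of BSX and TRIM31 lie wholly outside the window, so the class describes the window and not the stretch. Over the 23 stretches of this kind from named genes with a CpG-poor window, the count ran from 0 to 7 with a median of 2 and the GC content from 35.6% to 61.9%.

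Promoter peaks were a small part of each list. They made up 275 of the 96423 peaks of RT112 replicate 1 (0.285%) and 158 of the 60227 peaks of RT112 replicate 2 (0.262%). For UM-UC-3 they were 304 of 109287 peaks (0.278%) in replicate 1 and 311 of 114094 (0.273%) in replicate 2. The share was thus much alike in the 4 libraries, while the number followed the length of the list. The study gives an average number of reads per sample, but the lists give no read counts. The sequencing depth of each library is therefore not known and counting error could not be given.

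The genes with a promoter peak numbered 281 (1.39% of all protein-coding genes) and 160 (0.794%) in replicates 1 and 2 of RT112. They numbered 309 (1.53%) and 316 (1.57%) in those of UM-UC-3. Both UM-UC-3 libraries lay above both RT112 libraries. The mean share was 1.09% ± 0.425 (SD, n = 2) in RT112 and 1.55% ± 0.0246 (SD, n = 2) in UM-UC-3, a difference of 0.457 percentage points (two-sided exact permutation test, p = 0.33, as low as 2 against 2 can go). The difference rested largely on RT112 replicate 2, the shortest list: it was 0.156 percentage points without that library and 0.757 without RT112 replicate 1.

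In UM-UC-3, 229 genes had a promoter peak in both replicates (1.14% of all genes), which was 57.8% of the 396 genes found in either replicate. In RT112, 103 genes had one in both replicates and in no UM-UC-3 library, and 9 more had one in both replicates and in at least 1 UM-UC-3 library. Together these were 0.556% of all genes and 34.0% of the 329 genes found in either RT112 replicate. Counted over all libraries, 354 genes were found in exactly 1 library, 324 in 2, 12 in 3 and 7 in all 4. Most genes found in 2 libraries were replicate pairs, 103 of RT112 and 212 of UM-UC-3.

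A gene marked in one cell line was seldom marked in the other. Of the 697 genes, 28 had a promoter peak in at least 1 library of both lines. Among the RT112 genes found in both replicates, 9 (8.04%) also had a peak in a UM-UC-3 library, beside 1.97% of all genes and 4.47% of CpG-poor promoters. Among the 229 UM-UC-3 genes found in both replicates, 17 (7.42%) had a peak in an RT112 library, beside 1.63% of all genes and 4.11% of CpG-poor promoters. Where promoter peaks of the 2 UM-UC-3 replicates overlapped, both ends lay within 1 bp of each other in 145 of 227 pairs, and in RT112 this held for 38 of 110 pairs. Between the cell lines it held for 1 of 11 pairs in the comparison of the second RT112 library with the first of UM-UC-3, and for 0 of 19, 0 of 20 and 0 of 10 pairs in the others.

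The 7 genes with a promoter peak in all 4 libraries were GALNT16, MAP1LC3B2, ASB2, PYGO1, DRICH1, SPINT3 and PCYT1B. The score of a peak, deposited as a −log10 p or q (the lists do not say which), was used to rank peaks within a library, and the best of several peaks in a window is given. MAP1LC3B2, of the LC3 family of autophagy proteins, scored 9.59 and 8.85 in the RT112 replicates and 44.9 and 52.6 in the UM-UC-3 replicates. ASB2, a substrate receptor of a cullin ubiquitin ligase, had RT112 scores of 6.68 and 10.8 and UM-UC-3 scores of 22.7 and 22.6. Scores of separate lists need not share a scale, and by rank within its list the MAP1LC3B2 peak stood at the percentiles 89.7 and 87.3 in RT112 and above 99 in both UM-UC-3 libraries. GALNT16, an enzyme that starts O-linked glycosylation, had RT112 scores of 10.7 and 11.8 and UM-UC-3 scores of 16.1 and 13.0.

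PYGO1, a co-activator of Wnt signalling, was the one gene of the 7 with a CpG-rich window with RT112 scores of 8.59 and 9.32 and UM-UC-3 scores of 19.1 and 11.1. Its peaks were centred 383 bp upstream of the TSS in both RT112 replicates and 359 bp upstream in both UM-UC-3 replicates. SPINT3, of the Kunitz family of protease inhibitors, had RT112 scores of 3.80 and 4.09 and UM-UC-3 scores of 14.6 and 12.9. DRICH1 had RT112 scores of 7.43 and 4.09 and UM-UC-3 scores of 7.07 and 8.96. PCYT1B, an enzyme of phosphatidylcholine synthesis, had RT112 scores of 3.80 and 2.97 and UM-UC-3 scores of 2.64 and 3.85, which stood at the percentiles 43.1, 20.1, 15.8 and 41.8 of their lists.

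The start used here is that of the gene record, which is the outermost annotated transcript. For MAP1LC3B2 and PCYT1B the Ensembl canonical transcript starts 11276 bp and 25330 bp away. With canonical starts, an alternative chosen after the data were seen, ASB2, SPINT3 and DRICH1 were the 3 genes with a peak in all 4 libraries.

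**Figure D1:**
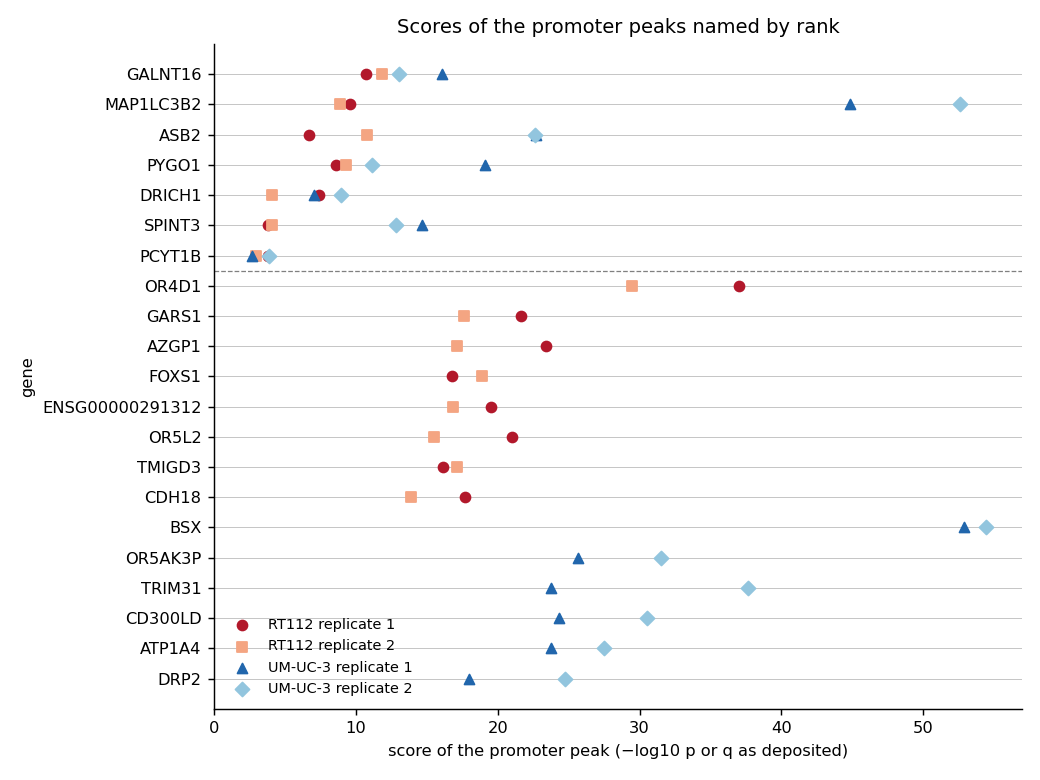
Scores (x axis, −log10 p or q as deposited) of the best promoter peak of each gene (rows), 1 point per library, where scores of separate libraries need not share a scale. The 7 genes above the dashed line had a peak in all 4 libraries, and those below it had the best mean rank within 1 cell line and no peak in the other, with 37.0 for OR4D1 in RT112 replicate 1 and 54.4 for BSX in UM-UC-3 replicate 2 at the right.

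Outside these, the best-ranked promoter peaks of RT112 lay at OR4D1, GARS1, AZGP1, FOXS1, OR5L2, TMIGD3, CDH18 and a gene named only by its identifier (ENSG00000291312), and none of these 8 genes had a promoter peak in a UM-UC-3 library. OR4D1, an olfactory receptor, scored 37.0 and 29.5. AZGP1, a secreted zinc-binding glycoprotein, scored 23.4 and 17.1 with peaks centred 456 and 457 bp upstream. FOXS1, a forkhead transcription factor, scored 16.7 and 18.9, and its peak had the same ends in both replicates, 341 bp upstream. GARS1, the glycyl-tRNA synthetase, scored 21.7 and 17.6, but its canonical transcript starts 14345 bp from the start used here. The canonical starts of TMIGD3 and of the cadherin gene CDH18 lie 60329 bp and 587673 bp away.

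In UM-UC-3 the best ranks belonged to BSX, MAP1LC3B2, OR5AK3P, TRIM31, CD300LD, ATP1A4, ASB2 and DRP2. BSX, a homeobox gene of the brain, scored 52.9 and 54.4 and had no peak in RT112. TRIM31, an E3 ubiquitin ligase, scored 23.8 and 37.6, and the immunoglobulin-superfamily receptor gene CD300LD scored 24.3 and 30.5. ATP1A4, the sodium pump subunit of sperm, scored 23.8 and 27.5, and DRP2, a relative of dystrophin, scored 18.0 and 24.7. The last 2 genes had peaks with identical ends in both replicates, centred 381 bp and 259 bp upstream of the TSS. BSX and TRIM31 had their peak centres 606 to 739 bp upstream, beyond the window that the peaks reached into.

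The median scores of promoter and other peaks differed by less than the spread between libraries. In RT112 the median score of promoter peaks was 3.80 in replicate 1 (other peaks 3.80) and 4.13 in replicate 2 (other peaks 4.09). In UM-UC-3 it was 4.34 (3.88) and 4.39 (3.85). The mean difference was 0.259 ± 0.279 (SD, n = 4; exact permutation test by sign flips, two-sided p = 0.25), and it was 0.166 without UM-UC-3 replicate 2, the library that differed most. When peaks were compared within quintiles of their own GC content the mean difference was -0.0559 (exact p = 0.375), which reversed the direction. Scores of 10 or more were held by 30, 20, 38 and 40 promoter peaks in the order of libraries above, or 10.9%, 12.7%, 12.5% and 12.9%, beside 10.1%, 8.74%, 9.15% and 9.17% of other peaks.

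Overlap with the other replicate was then compared between promoter peaks and other peaks. In RT112, 39.6% of promoter peaks of replicate 1 (other peaks 38.2%) and 68.4% of those of replicate 2 (61.3%) were overlapped by a peak of the partner library. For the UM-UC-3 replicates it was 74.7% (74.9%) and 72.7% (71.7%). The mean difference was 2.31 percentage points ± 3.25 (SD, n = 4; two-sided exact permutation test, p = 0.25), and it was 0.723 without RT112 replicate 2, which gave the largest of the 4 differences. With a window of 250 bp to each side it was 4.67 percentage points (exact p = 0.13), and within GC quintiles it was -1.40 (exact p = 0.375). It was 2.74 with the peak midpoint in the window, 0.923 within quintiles of the score, 0.592 with a window of 1000 bp and 0.768 with canonical starts. The promoter peaks shared with any library of the other cell line made up 8.73%, 6.96%, 6.58% and 6.75%, beside 7.02%, 7.73%, 5.98% and 5.91% of other peaks. The mean difference of 0.595 percentage points ± 1.03 (SD, n = 4; two-sided exact permutation test, p = 0.375) was smaller than its SD, and it was 0.224 without RT112 replicate 1, 1.05 without RT112 replicate 2 and -0.815 within GC quintiles. It was larger with the window of 250 bp (1.78, exact p = 0.25), with an overlap of 50% of both peaks (1.33, exact p = 0.13), with a peak in both replicates of the other line (0.908, exact p = 0.13) and with the peak midpoint in the window (0.830, exact p = 0.13). It was smaller with the window of 1000 bp (0.352) and within quintiles of the score (0.191). With canonical starts it was -0.338, and with the TSS of every transcript -0.273.

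Repeatability followed the score. Of promoter peaks that scored 2 to 3, 16.5% and 52.9% in the RT112 replicates and 52.6% and 58.1% in the UM-UC-3 replicates were found again in the other replicate. Of those that scored 10 or more, 28 of 30, 20 of 20, 37 of 38 and 39 of 40 were found again. Among genes found in both replicates, the best scores of the replicates had a Spearman correlation of 0.728 over the RT112 genes and 0.618 over the 229 UM-UC-3 genes, given as a description over genes that share their libraries. Genes found in 1 replicate only had a median best score of 3.63 (RT112) and 3.30 (UM-UC-3), and genes found in both had medians of 6.15 and 5.29 in the RT112 replicates and 5.19 and 5.03 in the UM-UC-3 replicates.

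**Figure D2:**
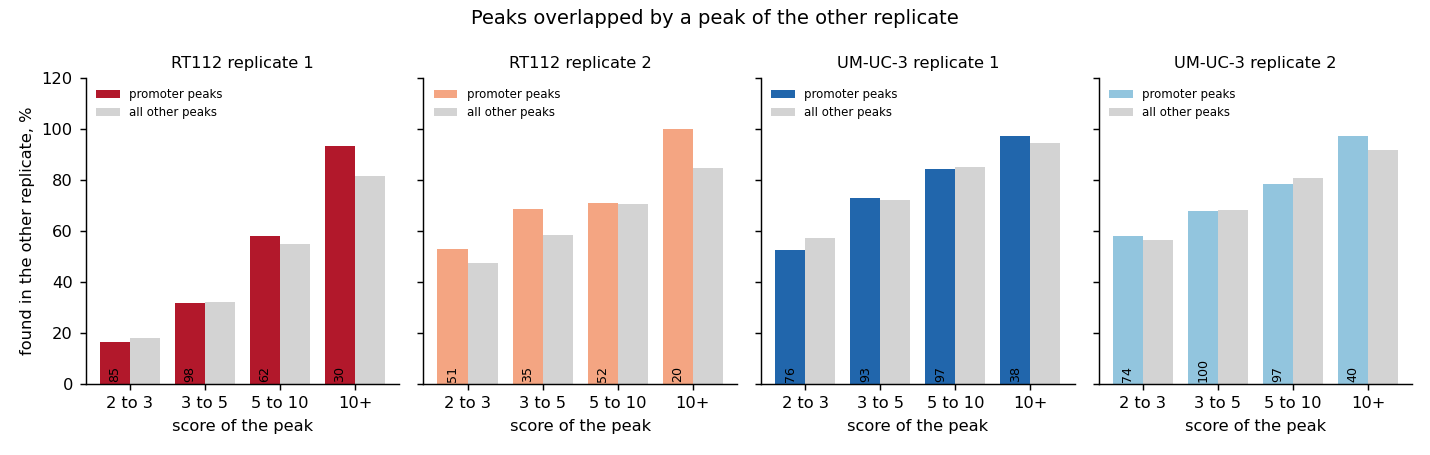
Percentage of peaks overlapped by a peak of the other replicate (y axis), in classes of the score (x axis), for promoter peaks (coloured bars) and all other peaks (grey bars) of each library. Small figures at the foot of the bars give the number of promoter peaks, and the share is highest at scores of 10 or more, at 93.3%, 97.4% and 97.5% in 3 libraries and 20 of 20 peaks in RT112 replicate 2.

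The promoters with a peak stood apart in base composition. The median GC content of windows with a peak was 47.9%, 48.2%, 48.2% and 47.9% in RT112 replicates 1 and 2 and UM-UC-3 replicates 1 and 2, and that of windows without one was 59.2% to 59.3%. The mean difference was -11.3 percentage points ± 0.225 (SD, n = 4; two-sided exact permutation test by sign flips, p = 0.13, as low as 4 libraries can go). The median CpG ratio with a peak was 0.227, 0.217, 0.251 and 0.247, and that without one was 0.688 to 0.690, a mean difference of -0.453 ± 0.0156 (SD, n = 4; two-sided exact permutation test, p = 0.13). The direction was the same in 4 of 4 libraries for both measures, and both differences were far larger than the spread between libraries. The windows without a peak numbered 19828 to 19984 of 20144, nearly the same set in each library, and replicates share promoters with a peak. The 4 differences are therefore not independent.

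CpG-rich promoters with a peak were scarce. Of 7174 CpG-rich promoters, 7 (0.0976%) and 4 (0.0558%) had a peak in the RT112 replicates, and 17 (0.237%) had one in each UM-UC-3 replicate. Of 6640 CpG-poor promoters, 233 (3.51%), 133 (2.00%), 234 (3.52%) and 239 (3.60%) had one. The mean difference was -3.00 percentage points ± 0.705 (SD, n = 4; two-sided exact permutation test, p = 0.13). The 6330 intermediate promoters lay between, with 41, 23, 58 and 60. In any library, 28 CpG-rich promoters (0.390%), 1.88% of the intermediate and 550 CpG-poor promoters (8.28%) had a peak, so that 78.9% of the genes with a promoter peak had CpG-poor windows, beside 33.0% of all genes.

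The share of promoters with a peak in any library was 11.1% at CpG ratios of 0.1 to 0.2, 2.95% at 0.5 to 0.6 and 0.286% at 0.9 to 1.0, and 0 of the 312 promoters with a ratio of 1.0 or more had one. By GC content it was 8.54% below 40%, 10.3% at 45% to 50% and 2.54% at 55% to 60%, and 2 of the 2555 promoters with a GC content of 70% or more had one (0.0783%). The highest share therefore lay at a middling GC content and not at the lowest, except in UM-UC-3 replicate 2, where it was 4.66% below 40% and 4.08% at 45% to 50%.

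**Figure D3:**
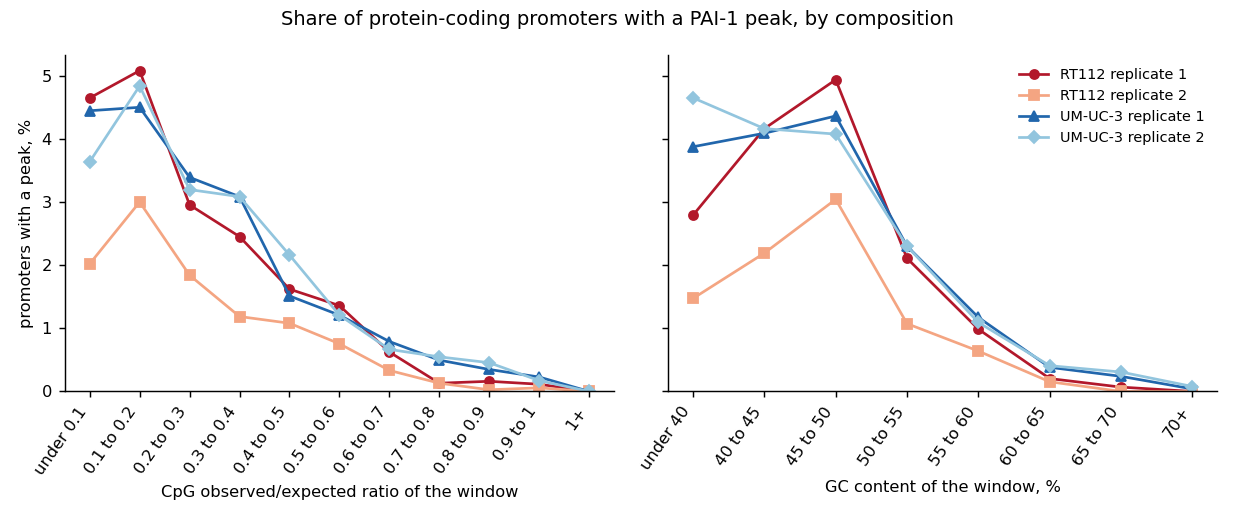
Percentage of protein-coding promoters with a peak (y axis) in bins of the CpG observed/expected ratio (left) and of the GC content (right) of the window, 1 line per library. All 4 lines reach 0 at CpG ratios of 1.0 or more, where 312 promoters lie, and RT112 replicate 2, the shortest list, lies lowest in most bins.

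The 2 measures were then separated. Among promoters of 45% to 50% GC, a peak in any library was found at 161 of 1206 with a CpG ratio under 0.48 (13.3%), 16 of 405 with a ratio of 0.48 to 0.75 (3.95%) and 2 of 128 with a higher ratio (1.56%). Among promoters of 55% to 60% GC the shares were 4.40%, 2.47% and 0.998%. At a like GC content, fewer promoters thus had a peak where CpGs were frequent. Within CpG-poor promoters alone, the GC difference of windows with and without a peak was -2.51 percentage points (two-sided exact permutation test, p = 0.13).

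Peak coverage dipped at the TSS, and most deeply at CpG-rich promoters. Coverage of the window by peaks was divided by coverage of the flanks that lie 2 to 3 kb from the TSS. This ratio was 0.0389, 0.0516, 0.0573 and 0.0476 at CpG-rich promoters in the 4 libraries. At CpG-poor promoters it was 0.866, 0.760, 0.757 and 0.719, also below 1 in each library. The mean difference of the ratios was -0.727 ± 0.0687 (SD, n = 4; two-sided exact permutation test, p = 0.13).

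**Figure D4:**
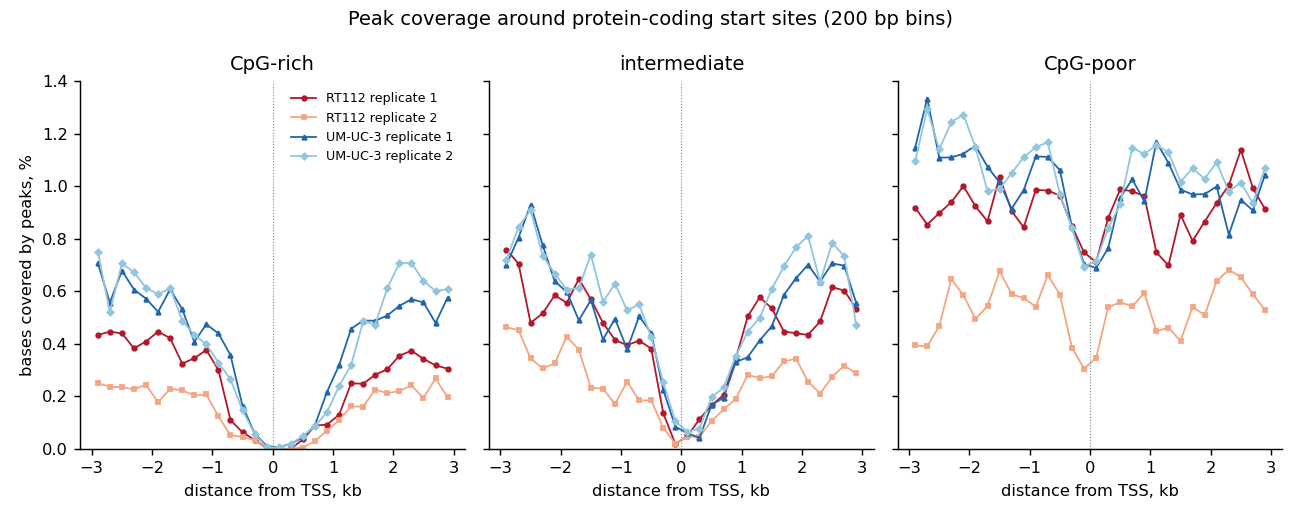
Percentage of bases covered by peaks (y axis) in 200 bp bins from 3 kb upstream (negative) to 3 kb downstream of protein-coding start sites (x axis, kb), for CpG-rich, intermediate and CpG-poor promoters, 1 line per library. Coverage falls close to 0 at CpG-rich start sites, and at CpG-poor ones it dips but keeps 0.305% to 0.748% in the bin just upstream of the TSS.

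The peaks at CpG-rich promoters lay at the edge of the window. Summed over the libraries, 45 peak and promoter pairs involved a CpG-rich window, with a median distance of 491 bp from the TSS to the peak centre, and 1 of the 45 centres lay within 250 bp. None of these peaks (0 of 45) contained the TSS, where peaks of these widths placed evenly over the positions that touch the window would contain it in 21.1%. In each of the 45 pairs the peak had a lower GC content than its window, with medians of 47.4% and 60.8%, but this class was chosen for a window GC content of at least 55%, and nothing is read from that difference. At CpG-poor promoters the median distance was 382 bp, 156 of 851 peaks contained the TSS (18.3%, and 24.0% if evenly placed), and 54.1% of peaks had a lower GC content than their window. Replicates share many of these peaks, so the pairs are not independent.

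The genes of the CpG-rich group named here were those with the highest CpG ratios. SMIM43 had RT112 scores of 13.0 and 12.4 with peaks of 36.8% and 37.1% GC in a window of 55.2%. EID2 had UM-UC-3 scores of 4.32 and 3.49 with peaks of 30.8% and 31.8% GC in a window of 60.3%, and SPACA1, a gene of the sperm acrosome, scored 2.61 and 3.31 with a peak of 42.4% GC in a window of 59.2%. HTR2C, a serotonin receptor, scored 3.80 and 3.35 in RT112. The PYGO1 peaks were 43.1% to 43.5% GC in a window of 59.2%.

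**Figure D5:**
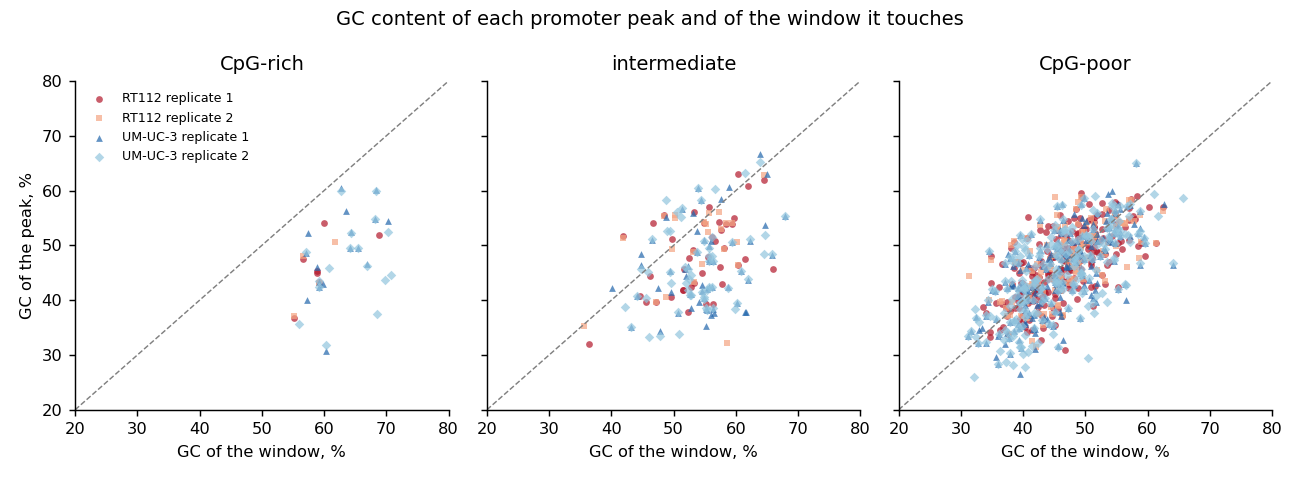
GC content of each promoter peak (y axis, %) against that of the window it touched (x axis, %), for CpG-rich, intermediate and CpG-poor windows, 1 point per peak and promoter pair, coloured by library. The dashed line marks equal GC content, and all 45 points of the CpG-rich panel, a class that requires a window GC content of at least 55%, lie below it.

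Promoters were also set beside sequence of the same CpG class elsewhere, a comparison added after the values were seen. The genome was cut into tiles as long as the windows, and those over 5 kb from every protein-coding TSS were sorted into the same classes. Of CpG-poor tiles, 4.70%, 2.87%, 5.20% and 5.40% had a peak in the 4 libraries, and the share of CpG-poor promoters was lower in each (promoters minus tiles, -1.39 percentage points ± 0.432, SD, n = 4; two-sided exact permutation test, p = 0.13). The tiles of this class were poorer in GC, with 54.8% of them under 40% GC beside 19.1% of the promoters. When the tiles were weighted by the GC bins of the promoters, the difference was -0.836 percentage points ± 0.0730 (SD, n = 4; exact permutation test, p = 0.13) and again below 0 in 4 of 4 libraries. Intermediate promoters, not weighted, also lay below intermediate tiles in 4 of 4 libraries (-1.24 ± 0.442, exact p = 0.13). CpG-rich tiles were few, 1741 in all, and 8, 1, 3 and 6 of them had a peak. Their shares of 0.460%, 0.0574%, 0.172% and 0.345% did not differ in a steady direction from the CpG-rich promoters (-0.102 ± 0.187, exact p = 0.375), so a scarcity of peaks was seen in CpG-rich sequence away from protein-coding starts as well.

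With the CpG classes pooled, the sides of the TSS differed little. The peak centre lay upstream in 54.7% and 48.5% of pairs in the RT112 replicates and in 58.3% and 55.8% in the UM-UC-3 replicates. At CpG-rich promoters, peaks covered 0.0625%, 0.0451%, 0.163% and 0.147% of bases from -600 to -401 bp. From 400 to 599 bp they covered 0.0355%, 0.00474%, 0.0433% and 0.0486%. At intermediate promoters the values were 0.381%, 0.185%, 0.441% and 0.425% upstream, and 0.165%, 0.105%, 0.167% and 0.197% downstream. In the bins next to the TSS the direction was not steady. Single peaks that reached the windows of several genes numbered 9, 5, 8 and 8. By chromosome, the share of promoters with a peak was highest on X in RT112 (3.57% and 1.73%) and on chromosome 11 in UM-UC-3 (2.81% in both replicates), where 43.8% of promoters were CpG-poor. Among CpG-poor promoters alone, the RT112 shares on X were 6.45% and 2.90%, beside 3.36% and 1.96% on the other chromosomes, and the UM-UC-3 shares were 3.55% in both, beside 3.52% and 3.60%.

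Gene families differed widely in how many members had a promoter peak, and their counts are set beside 3.46% of all genes and 8.28% of CpG-poor promoters with a peak in any library. Olfactory receptors, odour-sensing receptors expressed mainly in the nasal epithelium, formed the largest group: 50 of 412 had a promoter peak (12.1%), and 403 of the 412 were CpG-poor. In UM-UC-3, 24 of them (5.83%) had a peak in both replicates, beside 2.65% of all CpG-poor promoters, and in RT112 5 (1.21%), beside 1.4%. Against other CpG-poor genes of less than 45% GC, the receptors of like composition had a peak in 6.25% and 7.44% beside 3.72% and 4.09% in the UM-UC-3 replicates, and in 2.38% and 2.68% beside 3.82% and 1.77% in the RT112 replicates. Receptors were thus above other genes in both UM-UC-3 libraries and on either side of them in RT112. Of the 24 receptors found in both UM-UC-3 replicates, 14 lay on chromosome 11, where the family has 177 members.

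Defensins, small antimicrobial peptides, had a promoter peak at 8 of 46 genes (17.4%), bitter taste receptors at 4 of 24 and chemokines at 5 of 46. All defensin promoters were CpG-poor. CCL14 scored 14.6 and 18.1 in UM-UC-3, CCL21 scored 8.13 and 6.82 in RT112, and CCL5 had peaks in both RT112 replicates that did not overlap, centred 284 bp upstream in one and 466 bp downstream in the other. These chemokines were picked after their values were seen. Keratin-associated proteins had 4 of 94 (4.26%) although all were CpG-poor, keratins 4 of 55, cancer-testis antigens 5 of 98, type I interferons 1 of 17, protocadherins 2 of 66 and cytochrome P450 genes 1 of 56 (1.79%), of which 66.1% were CpG-poor.

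Several families with few CpG-poor promoters had a peak at 0 or 1 member. The homeobox clusters had 0 of 39, proteasome subunits 0 of 45, complex I subunits of the respiratory chain 0 of 37 and regulators of the G1 phase of the cell cycle 0 of 17. Cytosolic ribosomal proteins had 1 of 87, RPS18, which scored 3.94 and 5.03 in UM-UC-3 with a peak centred 570 bp downstream. Mitochondrial ribosomal proteins had 1 of 78 and zinc finger genes of the ZNF series 11 of 515 (2.14%). Aminoacyl-tRNA synthetases had 2 of 34 (5.88%) and replication-dependent histones 3 of 65 (4.62%), beside 3.46% of all genes. Of their promoters, 1 and 0 were CpG-poor. These counts are small, and each of the 3 histone genes had its peak in 1 library. With canonical starts the counts were 1 of 34 and 2 of 65, beside 596 of 19863 genes.

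Among 16 genes of PAI-1 and plasminogen biology, 12 of them CpG-poor, 2 had a promoter peak (12.5%), each in 1 library. The shares in any library were 3.46% of all genes and 8.28% of CpG-poor promoters. FGG, the gamma chain of fibrinogen, scored 3.88 in UM-UC-3 replicate 1, and SERPINB2, the related inhibitor PAI-2, scored 2.30 in RT112 replicate 1. Of 12 genes for candidate partner proteins of nuclear PAI-1, 1 of them CpG-poor, 0 had a promoter peak. Among 18 genes of urothelial differentiation, 12 of them CpG-poor, 3 had one (16.7%). TP63, a transcription factor of basal cells, scored 4.51 and 4.44 in UM-UC-3. KRT5, a basal keratin, scored 7.52 and 5.40 in UM-UC-3, and the cell surface glycoprotein CD44 scored 4.52 and 4.09 in RT112. These counts are small, and with canonical starts SERPINB2 and CD44 had no promoter peak. GAPDH and ACTB had none, although for ACTB the start used here lies 33301 bp from the canonical one.

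The gene lists of the study, which joined genes near a PAI-1 site with genes that changed after PAI-1 knockdown, were chosen in part on these peaks and are not independent evidence. Of the 438 and 475 gene identifiers read for the UM-UC-3 and RT112 lists, 434 and 469 matched a protein-coding gene here and the others are left out. A promoter peak in any library was found at 23 of 434 genes of the UM-UC-3 list (5.30%) and 23 of 469 genes of the RT112 list (4.90%), beside 3.46% of all genes. Promoters of the lists were CpG-poor in 48.2% and 48.4%, beside 33.0% of all. In both replicates of the matching line, 7 genes of the UM-UC-3 list (1.61%, beside 1.14% of all genes) and 3 of the RT112 list (0.640%, beside 0.556%) had a peak. Of the 57 genes shared by both lists, 2 had one: KLF8, a Krüppel-like factor, with 6.26 in RT112 replicate 1, and PTPRC, the leukocyte phosphatase CD45, with 3.88 and 2.63 in UM-UC-3. Among the 12 targets of ChIP-PCR primers, HDAC2 had a promoter peak, with RT112 scores of 4.94 and 4.09. That peak lay at an outer start, 40160 bp from the canonical start of this histone deacetylase gene. With canonical starts HDAC2 had none and LPXN had one in both UM-UC-3 replicates. Those starts gave a peak in any library at 15 of 432 genes of the UM-UC-3 list and 18 of 466 of the RT112 list. The count for all genes was then 596 of 19863. Of the 57 shared genes, 3 had a peak at the canonical start: PTPRC, SLC26A7 and KLF8.

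Short motifs were searched on both strands from 250 bp before to 50 bp after the TSS, no motif contains another, and a match describes letters and not a binding site. TATAAA was found in 10.9% of all promoters, 20.4% of CpG-poor ones, and 15.1% and 18.8% of the CpG-poor promoters with a peak in both replicates of RT112 (n = 93) and UM-UC-3 (n = 176). GGGCGG, the core of GC boxes, was found in 52.2% of all promoters, 15.3% of CpG-poor ones, and 4.30% and 8.52% of those with a peak. TGACTCA, the AP-1 consensus, was found in 3.97% and 7.62%, and in 11.8% (RT112) and 6.82% (UM-UC-3) of those with a peak. CCAAT was found in 35.8% and 36.4%, and in 40.9% and 38.1%. CCGGAAG, an ETS motif, was found in 11.8% and 2.02%, and in 0 of 93 and 2 of 176. GGGCGG, which itself holds a CpG, was thus less frequent at the promoters with a peak than at CpG-poor promoters as a whole in both lines.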

How the data were processed

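Peak lists of 4 PAI-1 ChIP-seq libraries (RT112 and UM-UC-3, replicates 1 and 2) were analysed, with groups and replicate numbers from the labels. Per the labels and the study's methods, the authors aligned reads to hg19 with Bowtie 1.1.1, removed duplicates with Picard and called peaks with MACS2 2.1.0.20140616. FastQC and Trimmomatic are also named in the submitters' processing notes. Figure legends of the study name a false discovery rate limit for bound probe sets, without saying whether it applies to these lists. The use of the inputs and any pooling of replicates are not given in the sources used here. The deposited score of each peak is a −log10 p-value or q-value by the authors (lowest value 2.0) and was ranked and compared only within a library, since lists of different length need not share a scale.

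Lines with identical intervals were counted once, with the highest score. TSSs were the gene-level starts of protein-coding genes in GENCODE 44 mapped to GRCh37: of 20163, the 19 whose window holds only N were left out. Windows with identical sequence belonged to 201 genes, 2 of which had a peak. The study states default parameters for Bowtie and does not describe further how reads at such repeats were placed. GC content, CpG ratio and motifs were computed from the GRCh37 sequence. The share of repeat-masked bases was not computed because the reference marks none.

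Libraries were the units of the tests, 2 from each of 2 lines, and are not fully independent. Contrasts within libraries were tested by the exact permutation of signs over 4 differences, and the cell lines by an exact permutation test of 2 against 2, all two-sided. The smallest possible p-values are 0.13 and 0.33, so no test could pass 0.05. The overlap, class share and test procedures were tested on simulated data. Named genes were those with a peak in all 4 libraries, the 8 best mean ranks and 3 highest CpG ratios per line among genes found in both replicates, and members of the listed families. A gene and some sequences are not reported here. Members, lists and this rule were chosen with earlier results of these data known. Python 3.11.15, numpy 2.4.6, pandas 2.3.3, scipy 1.17.1 and matplotlib 3.10.9 were used.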

Additional observations from a re-analysis of the deposited data

How the results depend on the processing

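Over 102 alternatives to the 9 comparisons, 97 kept the direction of the reported value and 5 reversed it. Some of the 97 could not have reversed it. Leaving out a library cannot do so where all libraries agree in direction, and the replicate block leaves the mean difference between the lines unchanged. The total is therefore no measure of robustness. Both composition differences, the contrast of CpG-rich with CpG-poor promoters, the coverage ratio at the TSS, the contrast of CpG-poor promoters with tiles and the difference in the number of genes between the cell lines kept their direction under every alternative tried for them. The alternatives differed between these comparisons. Among them were other windows (250 bp, 1000 bp, or the peak midpoint in the window), the TSS of every transcript and the Ensembl canonical TSS. Others were a score of at least 5, peaks found in the other replicate, autosomes only, other class limits or flanks, and each library left out. The contrast with tiles was tried only with tiles weighted by GC content and with each library left out. The coverage ratio was not tried with other windows, the peak midpoint or the TSS of every transcript. The GC difference ranged from -13.2 to -2.51 percentage points, the CpG ratio difference from -0.504 to -0.155, the class difference from -5.25 to -1.30 percentage points and the coverage ratio difference from -0.745 to -0.618. With the TSS of every transcript, the number of genes with a peak grew to 6.60% (RT112) and 8.77% (UM-UC-3). The lowest CpG ratio difference in size came from the mean over the 4 lowest GC quintiles of promoters, and the lowest GC difference in size from CpG-poor promoters only, both chosen after seeing the data, as were the canonical TSS and the weighting of tiles by GC content (-0.836 percentage points).

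The reversals concerned small differences between promoter peaks and other peaks. Averaging over GC quintiles of the peaks gave -1.40 percentage points for the replicate overlap, -0.0559 for the median score and -0.815 percentage points for the overlap with the other cell line. The last was also reversed with the canonical TSS (-0.338) and the TSS of every transcript (-0.273). The cause was not tested.

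The replicate block, which pairs the libraries by number, gave the same difference in genes with a promoter peak of 0.457 percentage points (exact permutation test, p = 0.5, the smallest it allows). The labels do not say that numbers pair libraries across the lines: replicate 1 deviated from its line's mean by 0.30 percentage points in RT112 and by -0.0174 in UM-UC-3.

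Leaving out each library in turn gave 0.156 to 0.757 percentage points for the gene difference, 0.723 to 3.14 for the replicate overlap, 0.166 to 0.346 for the median score, 0.224 to 1.05 for the overlap with the other cell line, -11.4 to -11.2 for GC content, -0.458 to -0.448 for the CpG ratio, -3.35 to -2.87 for the classes -0.745 to -0.693 for the coverage ratio and -1.56 to -1.25 percentage points for the contrast with tiles. The depth of each single library is unknown, and the inputs were not analysed here. Of the 685 genes with a promoter peak and a canonical transcript, 477 (69.6%, beside 78.4% of all genes) had that transcript's start within 500 bp of the start used.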
